A study of Homo sapiens with 10 samples.

Results

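The mRNAs described here encode the subunits of the cap-binding complex eIF4F, their paralogues and the cofactors of its helicase. They were chosen by gene symbol alone: EIF4A2, EIF4A3, EIF4E, EIF4E2, EIF4G1, EIF4G2, EIF4G3, EIF4B and EIF4H, which are 9 of the 39472 symbols in the count files, each with its 5' leader, coding sequence (CDS) and 3'UTR counts. EIF4A1, the main eIF4A gene, was listed at 0 in every class of every file and is not described. The counts came from eCLIP, in which ultraviolet light crosslinks a protein to the RNA it touches and the recovered RNA fragments are sequenced. All libraries were made from HEK 293T cells, an established human embryonic kidney line, with a FLAG-tagged eIF4A that was recovered with an anti-FLAG antibody; the tagged eIF4A gene and its promoter are not stated in the labels. Cells received 20 nM CR-1-31-B, 20 nM silvestrol or vehicle (DMSO) for 1 h before crosslinking at 254 nm and 400 mJ/cm2, with 3 libraries each, and 1 input library was made without antibody. Silvestrol and CR-1-31-B are rocaglates, small molecules that clamp eIF4A onto RNA.

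eIF4F assembles on the capped 5' end of an mRNA: eIF4E binds the cap, the eIF4G scaffold holds the complex together, and the DEAD-box helicase eIF4A unwinds the leader so that the ribosomal 43S complex can load and scan. eIF4B and eIF4H bind RNA and stimulate eIF4A. In these data the same machinery is seen from the other side, as mRNAs that tagged eIF4A contacts.

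The annotated 5' ends differ between the members, and some are shown because most eIF4A counts of EIF4G2 and EIF4G3 fell in the leader, while EIF4A2 and EIF4B open with a pyrimidine run. The first 30 bases of the transcript are given in the mRNA sense from RefSeq on GRCh38.p14, and all 9 members matched the table. Capitals mark an opening C followed without interruption by C or T, where that run has at least 4 bases; such an opening is the mark of 5' terminal oligopyrimidine (TOP) mRNAs, a class that is known to include EIF4B.
EIF4A2: CTTTTCagtcgggcgctgagtggtttttcg
EIF4B: CTTTTgcgttctctttccctctcccaacat
EIF4G1 start 1: ggaaatggttgtggactacgtctgtgcggc
EIF4G2 start 1: gccagcagtgagtcggagctctatggaggt
EIF4G2 start 2: acttccctaacttgcgcctgggtgggagga
EIF4G3 start 1: agccgtcctgccggactgctggaggcggcc
The EIF4A2 window lies at chr3:186783577-186783606 on the plus strand and the EIF4B window at chr12:53006456-53006485 on the plus strand. The first of 3 EIF4G1 starts lies at chr3:184314606-184314635 on the plus strand. Both EIF4G2 starts lie on the minus strand, at chr11:10808897-10808926 and chr11:10807967-10807996, and the first of 2 EIF4G3 starts lies at chr1:21176868-21176897 on the minus strand. EIF4A2 and EIF4B were the only members with the opening run, which 14.3% of the 14 member starts and 5.72% of 22199 protein-coding starts carry. Rocaglates are known to favour runs of A and G (purines). In the first 50 bases on the sense strand, a run of at least 6 purines was present in 21.4% of the member starts and in 44.9% of all protein-coding starts, and the median purine share was 52% in both. These runs had 8 purines in the second EIF4G2 start, 7 in the second EIF4G3 start and 7 in the first EIF4E2 start. In the first EIF4G2 start the longest run was 5. These matches are descriptions of annotated starts; the start used in these cells was not measured.

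The anti-FLAG libraries held 858733 to 1804732 counts and the input library 2193699. The 9 mRNAs took 0.207 to 0.282% of the counts in CR-1-31-B libraries, 0.164 to 0.278% in silvestrol libraries, 0.194 to 0.287% in DMSO libraries and 0.184% in the input. All 7 HEK 293T marker genes were detected (246 to 403 CPM, that is, counts scaled to the same library total, summed in each anti-FLAG library), and of 10 markers of other cells 6 had under 10 counts over the 9 anti-FLAG libraries (PTPRC, HBB, CD3E, ALB, APOA1 and DCN; the sum over the 10 was 29.9 to 132 CPM). The other 4 were detected: COL1A1, a fibroblast collagen, had 24 to 78 counts per anti-FLAG library, COL3A1 0 to 21, CDH1 8 to 65 and EPCAM 2 to 14. COL1A1 lay above the HEK 293T marker KRT8, which had 13 to 27 counts, in all 9 anti-FLAG libraries. Leaders took a mean of 30.2 ± 6.49% of all counts in CR-1-31-B libraries, 30.8 ± 3.16% in silvestrol libraries and 22.7 ± 1.80% in DMSO libraries (SD, n = 3 each), against 7.57% in the input. CR-1-31-B library 3, at 22.8%, lay inside the DMSO range of 20.7 to 24.1%, so not every rocaglate library had the shift. The shift in the means stands beside every leader value below, and its part in them was not tested. CPM are relative values, and RNA levels after treatment were not measured, so more eIF4A on a transcript and more copies of it cannot be told apart. The labels do not say whether the library numbers mark separate cultures, so the p-values concern the spread between these libraries.

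How vehicle-treated eIF4A sat on these mRNAs was described first, by setting the DMSO libraries against the input. The EIF4G2 leader had the most counts of the member leaders and the largest of the ratios to the input given here. Of the 8 member leaders with at least 10 counts over the DMSO and input libraries, 6 lay above input in every DMSO library (EIF4A2, EIF4A3, EIF4G1, EIF4G2, EIF4G3 and EIF4B), where 65.7% of all leaders did, and none lay below it in every DMSO library (2.93% of all leaders). The count was also 6 when libraries were scaled to leader, CDS and 3'UTR counts alone, where 56% of all leaders lay above. Without DMSO library 1 or without DMSO library 2 it was 7, but the share of all leaders in those settings is not given here. With a single input library these ratios have no replicate check on the input side and carry no test.

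The leader of EIF4G2, which encodes an eIF4G relative (DAP5) that lacks the eIF4E-binding region, had 571, 301 and 299 CPM in the DMSO libraries, against 81.6 CPM in the input. Each DMSO library was 3.66 to 7.001 times the input, and DMSO library 1 was the highest. The leader of EIF4G1, the main scaffold, had 194, 122 and 139.9 CPM in the DMSO libraries, against 46.5 CPM in the input, a mean ratio of 3.27. The leader of EIF4G3, a second full-length scaffold, had 142, 108 and 133 CPM in the DMSO libraries, against 77.0 CPM in the input, a mean ratio of 1.65. The 3 scaffold leaders thus all lay above input, with EIF4G3 nearest to it: on the mRNA scale its ratio was 1.19, beside 3.41 for EIF4G2 and 2.34 for EIF4G1. Among the helicases, the leader of EIF4A3, the exon junction complex member, had 20.5, 26.1 and 15.9 CPM in DMSO libraries against 5.47 CPM in the input (mean ratio 3.81, from 12 input counts). The leaders of EIF4A2, EIF4B and EIF4H had 2, 3 and 1 input counts, too few for a ratio.

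CDS and 3'UTR counts did not share this pattern. Of the 9 member CDS, 2 lay above input in every DMSO library (EIF4E and EIF4H; 23.5% of all CDS did) and 3 lay below (EIF4A2, EIF4G3 and EIF4B; 23.9%). On the mRNA scale no member CDS lay above input in every DMSO library (13% of all). Of the 9 member 3'UTRs, 3 lay above (EIF4A3, EIF4G1 and EIF4B; 21.4%) and EIF4E2 alone lay below (18.2%). On the mRNA scale 2 member 3'UTRs lay above (EIF4A3 and EIF4B; 9.12%). EIF4B had opposite values in its long parts: its CDS had 120.4, 101.4 and 111 CPM in the DMSO libraries against 195 CPM in the input, while its 3'UTR had 152, 157 and 173 CPM in the DMSO libraries against 95.7 CPM in the input. The DMSO libraries stayed on 1 side of the input in both parts, at 0.57 times the input for the CDS and 1.68 times for the 3'UTR.

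**Figure D1:**
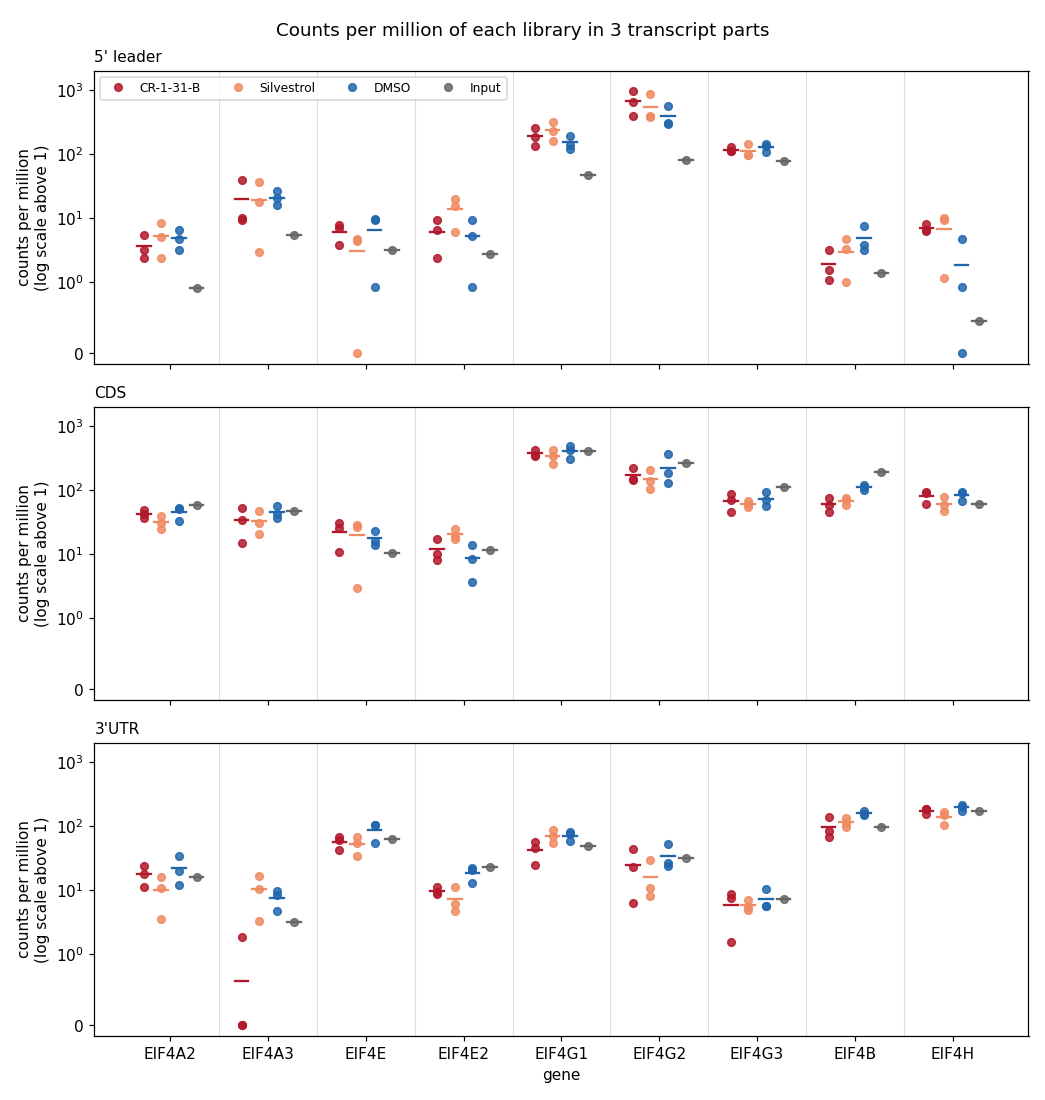
CPM of each library (vertical axis, log scale above 1) for the 5' leader, CDS and 3'UTR of the 9 genes; each point is 1 library, the short line is the group mean, and the groups run CR-1-31-B, silvestrol, DMSO and input from left to right within a gene. The EIF4G2 leader stands highest among the leaders, with 299 to 571 CPM in DMSO libraries and 81.6 CPM in the input, while the EIF4B CDS lies below its input value of 195 CPM in all 9 anti-FLAG libraries.

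Per length, the order of the leaders changed. The levels were divided by the bases annotated as leader in any GENCODE v29 coding transcript of the gene, a length that counts alternative starts the cells may not use. Median leader lengths over transcripts were much shorter for some genes: 247 bases for EIF4G1, 165.5 for EIF4E, 36 for EIF4E2 and 28 for EIF4B. For EIF4G3 the median was 539 bases. The order below holds only for the full annotated length, and on median lengths EIF4G1 would pass EIF4G3. In DMSO libraries the EIF4G2 leader had 391 ± 157 CPM per kb (998 bases), the EIF4G3 leader 150.3 ± 20.7 (848 bases), the EIF4A3 leader 93.8 ± 22.9 (222 bases), the EIF4G1 leader 92.5 ± 22.9 (1643 bases) and the EIF4A2 leader 74.8 ± 26.3 (64 bases; SD, n = 3 each). EIF4G2 lay above EIF4G3 in every DMSO library (at least 299.5 against at most 167 CPM per kb), whereas EIF4A3, EIF4G1 and EIF4A2 overlapped one another. Leaders of the cofactors EIF4B (14.7 ± 7.11 CPM per kb) and EIF4H (13.4 ± 17.7) and of the cap-binding proteins EIF4E2 (7.70 ± 6.22) and EIF4E (3.58 ± 2.67) were the lowest, and neighbours in this order overlapped. EIF4G3 also lay above the next leader, EIF4A3, in every DMSO library (at least 127.3 against at most 117 CPM per kb). In the input EIF4G3 was the highest leader at 90.8 CPM per kb. EIF4G2 (81.8), EIF4G1 (28.3), EIF4A3 (24.6) and EIF4A2 (14.2) followed. The order in DMSO libraries thus describes levels, not levels relative to the input. The EIF4A2 leader had 3 to 7 counts per DMSO library and 2 in the input.

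The next comparisons asked what each rocaglate did to the counts of these mRNAs. No member feature passed the test: of the 21 member features with enough counts (4 leaders, 9 CDS and 8 3'UTRs), 0 were called at an edgeR Benjamini-Hochberg adjusted p under 0.05 for CR-1-31-B against DMSO (0.291% of all 24713 tested features were called), for silvestrol against DMSO (0.255%) or for both rocaglates against DMSO (0.49%). At an unadjusted edgeR p under 0.05 there were 3, 0 and 2 of the 21 member features in that order, where 8.86%, 8.09% and 10.03% of all features were. With the library number as a block there were 5, 3 and 5. The share of all features at that cut is not given for the block. DESeq2, limma voom and the fit with the library number as a block also called 0; that block fit called 1.48%, 1.28% and 2.04% of all features. The lowest edgeR adjusted p among members was 0.374 for CR-1-31-B, 0.640 for silvestrol and 0.298 for both, each at the EIF4B CDS except for silvestrol, where it was the EIF4E2 CDS. The 6 untested features were the leaders of EIF4A2, EIF4E, EIF4E2, EIF4B and EIF4H, with 0 to 28 counts a library, and the EIF4G3 3'UTR, with 2 to 12 counts an anti-FLAG library.

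By transcript part, the members' medians lay below those of all tested features. For both rocaglates against DMSO, the 4 tested leaders had a median log2 fold change of 0.20, beside 0.36 for all leaders, with 2 above 0 and 2 below. The 9 CDS had a median of -0.23, beside -0.09 for all CDS, with 2 above 0. The EIF4A3 3'UTR, with at most 3 counts in any CR-1-31-B library, is left out of the values that use that compound. The other 7 tested 3'UTRs were below 0, with a median of -0.69 beside -0.27 for all 3'UTRs, of which 27.4% were above 0. For CR-1-31-B alone the same 7 were below 0 (median -0.65), and for silvestrol 6 of 8 were (median -0.61). None of these single values passed the test.

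**Figure D2:**
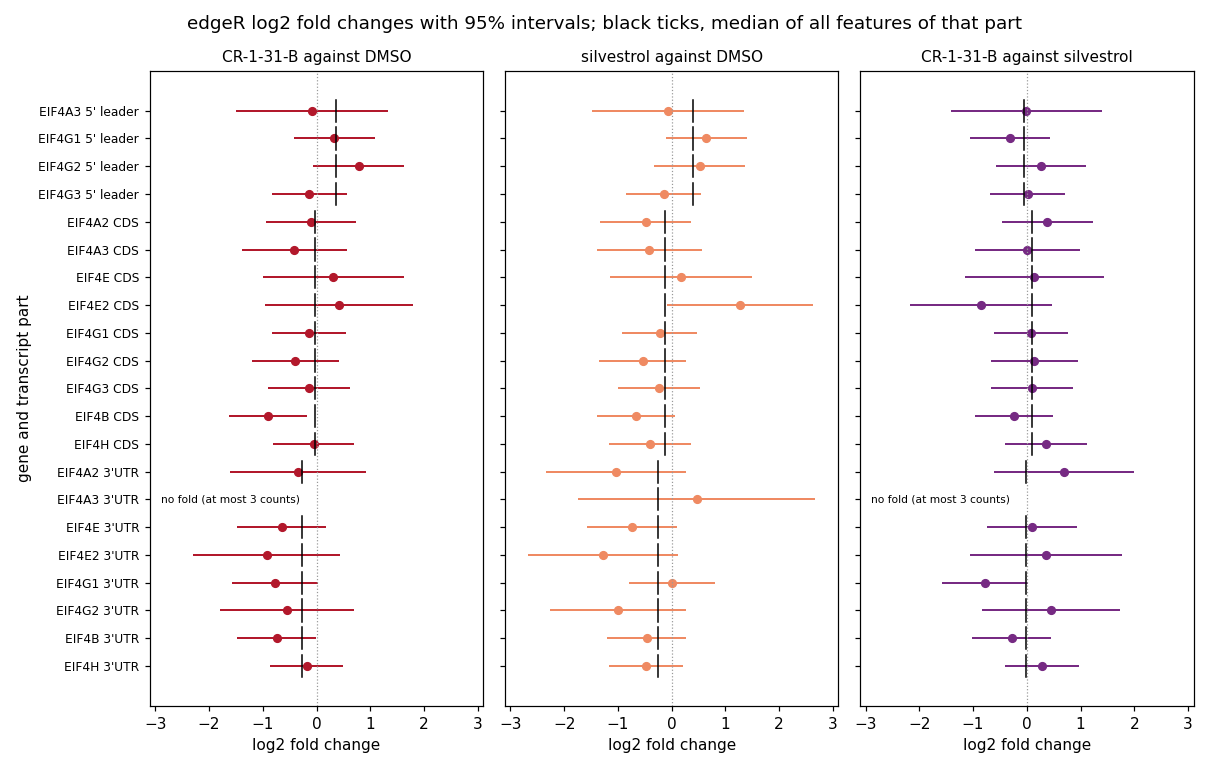
Log2 fold changes (horizontal axis, points) with 95% intervals (lines) of the 21 tested member features from edgeR, for CR-1-31-B against DMSO, silvestrol against DMSO, and CR-1-31-B against silvestrol; black ticks give the median of all features of the same transcript part. The EIF4G2 leader (0.78 and 0.52 against DMSO) and the EIF4B CDS (-0.90 and -0.67) lie on opposite sides of 0, no feature was called, and no fold is drawn for the EIF4A3 3'UTR under CR-1-31-B, which had 3, 0 and 0 counts.

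Among the helicase mRNAs, EIF4A2, the paralogue of EIF4A1, had CDS values of 39.7, 47.6 and 51.0 TMM-scaled CPM (CPM on library sizes corrected by edgeR's TMM factors) in CR-1-31-B libraries 1 to 3, 43.4, 28.4 and 33.1 in silvestrol libraries and 52.9, 59.4 and 35.5 in DMSO libraries. The groups overlapped (log2 fold change -0.10 for CR-1-31-B and -0.48 for silvestrol against DMSO). The leader of EIF4A3 had 42.3, 10.4 and 10.4 TMM-scaled CPM in CR-1-31-B libraries, 40.4, 3.41 and 19.1 in silvestrol libraries and 21.5, 29.7 and 17.2 in DMSO libraries. Library 1 of each rocaglate was high and the groups overlapped, so that both log2 fold changes were -0.08. The EIF4A3 3'UTR had 3, 0 and 0 counts with CR-1-31-B, 6, 17 and 9 with silvestrol and 9, 5 and 9 with DMSO, in library order. All CR-1-31-B libraries were at or below the floor of 3 counts, so no fold is given for that compound.

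The cap-binding mRNAs had low counts. The 3'UTR of EIF4E, the cap-binding subunit of eIF4F, had 45.6, 66.6 and 71.8 TMM-scaled CPM in CR-1-31-B libraries, 37.3, 62.6 and 73.9 in silvestrol libraries and 56.8, 118 and 113 in DMSO libraries. Library 1 was the lowest in every group, and each rocaglate library lay below the DMSO library of its own number, although the groups overlapped. The share of all 3'UTRs that fell within library numbers is not given here. Most 3'UTRs fell: only 27.4% were above 0 for both rocaglates against DMSO. With the library number as a block, the log2 fold change for both rocaglates against DMSO was -0.66 (edgeR adjusted p = 0.222). Without the block it was -0.69 (SE 0.33, edgeR adjusted p = 0.492). EIF4E2, a cap-binding relative known as 4EHP that represses translation, had 3'UTR values of 11.9, 10.4 and 9.27 in CR-1-31-B libraries, 12.05, 6.82 and 5.10 in silvestrol libraries and 21.5, 14.9 and 24.0 in DMSO libraries. All 6 rocaglate libraries lay below all 3 DMSO libraries (-1.10, SE 0.55, edgeR adjusted p = 0.517). Its CDS had 8.60, 11.2 and 18.5 in CR-1-31-B libraries, 21.1, 28.4 and 19.1 in silvestrol libraries and 14.7, 4.25 and 9.16 in DMSO libraries. Silvestrol libraries were all above DMSO libraries, and CR-1-31-B libraries overlapped them (log2 fold change 0.42 for CR-1-31-B, and 1.27 for silvestrol, edgeR adjusted p = 0.640). These values rest on 4 to 35 counts a library, and how many of all CDS have every silvestrol library above DMSO is not given here.

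Of the members, the EIF4G1 and EIF4G2 mRNAs carried the most counts. The EIF4G2 leader had 1043, 719.7 and 416 TMM-scaled CPM in CR-1-31-B libraries 1 to 3, 941, 448 and 422 in silvestrol libraries and 599, 343 and 323 in DMSO libraries. Library 1 was the highest in every group, each of the 6 rocaglate libraries lay above the DMSO library of its own number, and 3 of the 6 lay above all DMSO libraries. The share of all leaders that rose within library numbers is not given here. Most leaders rose: 69.8% had a value above 0 for both rocaglates against DMSO. None of the 4 tested member leaders had all 6 rocaglate libraries above all DMSO libraries, where 8.4% of all leaders did. For the EIF4G2 leader the log2 fold change was 0.78 for CR-1-31-B (SE 0.40, edgeR adjusted p = 0.604) and 0.52 for silvestrol (SE 0.40, edgeR adjusted p = 0.817). Of all tested leaders, 70.3% and 56.7% had a smaller one. With the library number as a block it was 0.76 for CR-1-31-B (edgeR unadjusted p = 0.00355, adjusted p = 0.118). The block gave 0.48 for silvestrol (edgeR unadjusted p = 0.0508, adjusted p = 0.442). The EIF4G1 leader had 271, 207 and 143 in CR-1-31-B libraries, 339, 182 and 251 in silvestrol libraries and 204, 139 and 151 in DMSO libraries. It overlapped between groups (log2 fold change 0.33 for CR-1-31-B, edgeR adjusted p = 0.884, and 0.65 for silvestrol, edgeR adjusted p = 0.692). When each transcript part was scaled to its own total, the EIF4G1 leader value for CR-1-31-B was -0.09 and the EIF4G2 leader values were 0.35 for CR-1-31-B and 0.05 for silvestrol.

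The EIF4G3 leader had 118, 125 and 134 TMM-scaled CPM in CR-1-31-B libraries, 106, 110.3 and 159 in silvestrol libraries and 149, 123.1 and 143 in DMSO libraries. The groups overlapped and library 1 was not the highest of either rocaglate group (log2 fold change -0.14 for CR-1-31-B and -0.15 for silvestrol, SE 0.33 each). The EIF4G1 3'UTR had 59.5, 27.7 and 48.7 in CR-1-31-B libraries, 76.5, 61.4 and 95.6 in silvestrol libraries and 84.2, 66.9 and 81.3 in DMSO libraries. All 3 CR-1-31-B libraries lay below all silvestrol and all DMSO libraries, and silvestrol overlapped DMSO. The log2 fold change was -0.77 for CR-1-31-B (edgeR adjusted p = 0.575) and 0.00 for silvestrol. How many of all 3'UTRs separate in this way is not given here.

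The cofactor mRNA EIF4B had the clearest separation. Its CDS had 62.8, 50.2 and 81.1 TMM-scaled CPM in CR-1-31-B libraries, 82.5, 67.1 and 77.7 in silvestrol libraries and 126, 116 and 120.2 in DMSO libraries. All 6 rocaglate libraries lay below all 3 DMSO libraries, which 2.92% of tested CDS did. The log2 fold change was -0.90 for CR-1-31-B (SE 0.34, edgeR adjusted p = 0.374), -0.67 for silvestrol (SE 0.34, edgeR adjusted p = 0.649) and -0.79 for both (SE 0.29, unadjusted p = 0.012, edgeR adjusted p = 0.298). The EIF4B 3'UTR had 89.9, 76.1 and 149 in CR-1-31-B libraries, 121, 111 and 149 in silvestrol libraries and 159.5, 179 and 187 in DMSO libraries, again with all 6 below all 3. Its log2 fold change was -0.74 for CR-1-31-B (edgeR adjusted p = 0.539) and -0.46 for silvestrol (edgeR adjusted p = 0.809). With the library number as a block, both rocaglates together gave -0.80 for the EIF4B CDS (edgeR adjusted p = 0.0942). The block gave -0.63 for the EIF4B 3'UTR (edgeR adjusted p = 0.187). Of the tested members, 1 of 9 CDS (EIF4B) and 2 of 8 3'UTRs (EIF4B and EIF4E2) separated in this way, where 2.92% of all CDS and 3.62% of all 3'UTRs did. In the other cofactor, EIF4H, CDS and 3'UTR overlapped between rocaglate and DMSO libraries (log2 fold change -0.23 and -0.33 for both rocaglates).

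**Figure D3:**
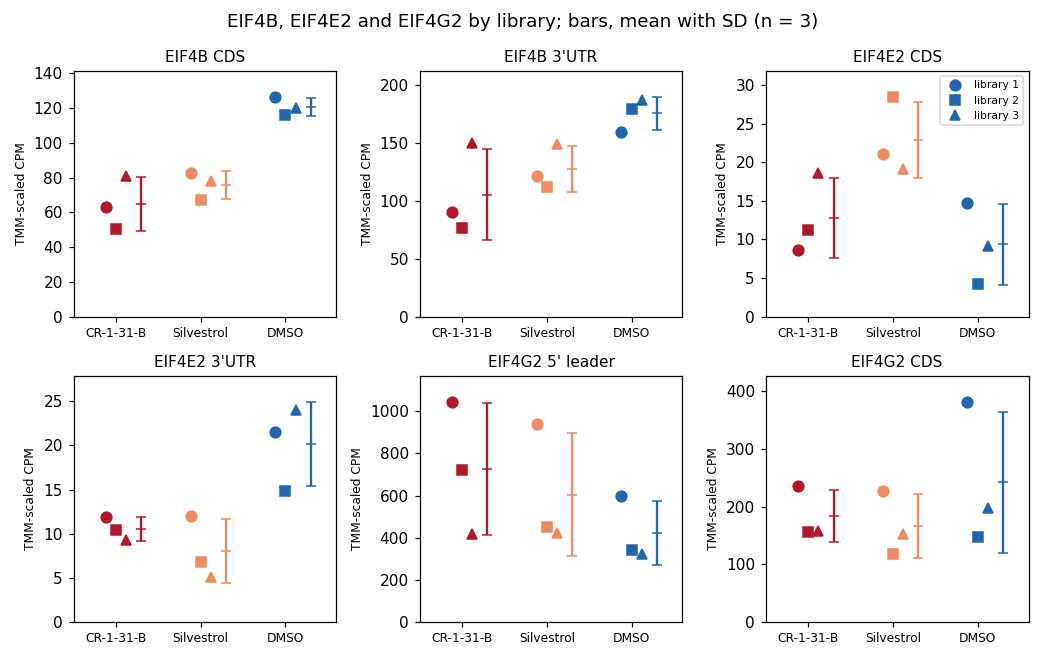
TMM-scaled CPM (vertical axes from 0) of 6 gene parts in CR-1-31-B, silvestrol and DMSO libraries; symbols mark the library number, and the bars beside them give the mean and SD (n = 3). EIF4B CDS (50.2 to 82.5 in rocaglate libraries, 116 to 126 in DMSO libraries), EIF4B 3'UTR and EIF4E2 3'UTR do not overlap between rocaglate and DMSO libraries, and the EIF4G2 parts are highest in library 1 of all 3 groups.

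Within a gene, the share of its mRNA counts that lies in the leader does not depend on how libraries are scaled, although it follows the general shift to leaders. The leader share of EIF4G2 was higher in every rocaglate library than in any DMSO library, that of EIF4G1 in 5 of 6, and that of EIF4G3 overlapped between the 3 groups. EIF4G2 had 80.1, 81.5 and 67.1% of its counts in the leader in CR-1-31-B libraries, 78.4, 77.4 and 72.4% in silvestrol libraries and 57.8, 66.2 and 58.9% in DMSO libraries, against 21.8% in the input (95% exact Clopper-Pearson interval 19.0 to 24.8%, which covers counting error only). The lowest rocaglate library, CR-1-31-B 3 at 67.1%, lay just above the highest DMSO library at 66.2%. The mean was 76.2 ± 7.92% for CR-1-31-B, 76.1 ± 3.19% for silvestrol and 61.0 ± 4.55% for DMSO (SD, n = 3 each). Both rocaglates together exceeded DMSO by 15.2 percentage points (two-sided exact permutation p = 0.0119, the smallest that 84 splits allow), and the Benjamini-Hochberg value over the 6142 genes with at least 20 counts in every library was 0.206. No gene passed, since 0.206 was the smallest value over all genes.

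Of the 9 members, EIF4G2 alone had all 6 rocaglate libraries above all DMSO libraries, where 8.68% of genes did, and 82.7% of genes had a smaller difference. The count of such members was 2 without CR-1-31-B library 3, DMSO library 1, DMSO library 2 or silvestrol library 3. Leaving out a library can only raise this count, and the share of all genes in those settings is not given here. Read within library numbers, EIF4G1, EIF4G2 and EIF4H had all 6 rocaglate libraries above the DMSO library of their own number, where 16.9% of genes did. EIF4G1 had 34.8, 33.6 and 25.1% in CR-1-31-B libraries, 38.4, 33.7 and 34.7% in silvestrol libraries and 25.2, 25.0 and 21.7% in DMSO libraries, against 9.35% in the input. Only CR-1-31-B library 3 reached into the DMSO range (difference 9.43 points, two-sided exact permutation p = 0.0238, Benjamini-Hochberg over all genes 0.265). EIF4G3 had 59.3, 70.4 and 56.9% in CR-1-31-B libraries, 57.5, 61.8 and 67.9% in silvestrol libraries and 59.1, 63.4 and 61.9% in DMSO libraries, against 39.1% in the input. These overlapped throughout (difference 0.82 points, two-sided exact permutation p = 0.821). The median difference over all genes was 4.92 points.

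Whether the scaffold mRNAs differed from one another was tested on the difference of their leader shares within each library, in 3 pairs chosen after the values were seen. EIF4G2 minus EIF4G3 was 13.9 ± 6.46 points in the 6 rocaglate libraries and -0.50 ± 2.99 points in the 3 DMSO libraries, with all 6 above all 3 (two-sided exact permutation p = 0.0238, adjusted over the 3 pairs 0.0714). EIF4G1 minus EIF4G3 was -28.9 ± 6.43 points in rocaglate libraries and -37.5 ± 3.17 points in DMSO libraries (two-sided exact permutation p = 0.0714, adjusted 0.0833). EIF4G2 minus EIF4G1 was 42.8 ± 3.67 points in rocaglate libraries and 37.0 ± 4.27 points in DMSO libraries (two-sided exact permutation p = 0.0833, adjusted 0.0833). Within library numbers the exact permutation p-values of the 3 pairs were 0.0370, 0.0370 and 0.0741 in that order (adjusted 0.0556, 0.0556 and 0.0741). After adjustment none of the 3 pairs was below 0.05. The tests reuse the values that led to the choice of pairs, so these p-values are descriptions. How many pairs of other genes separate in this way is not given here.

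**Figure D4:**
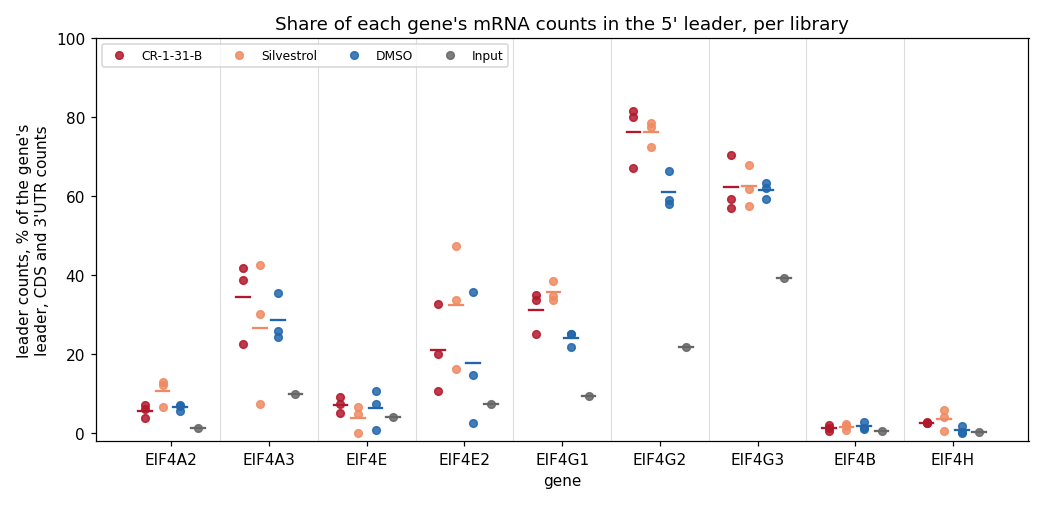
Share of each gene's leader, CDS and 3'UTR counts that fell in the 5' leader (vertical axis, percent), with 1 point per library, a line at the group mean, and CR-1-31-B, silvestrol, DMSO and input from left to right within a gene. EIF4G2 rocaglate libraries (67.1 to 81.5%) lie above its DMSO libraries (57.8 to 66.2%), EIF4G3 groups overlap between 56.9 and 70.4%, and the input is the lowest point of all 3 EIF4G genes.

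The other parts of the same mRNAs mirrored or departed from this. The CDS share of EIF4G2 was 20.4 ± 4.35% in CR-1-31-B libraries, 21.8 ± 3.76% in silvestrol libraries and 33.7 ± 4.55% in DMSO libraries (SD, n = 3 each). All 6 rocaglate libraries lay below all DMSO libraries (two-sided exact permutation p = 0.0119, Benjamini-Hochberg over all genes 0.292), and 4.62% of genes had such a CDS share. The shares of a gene's 3 parts add up to the whole, so this largely restates the EIF4G2 leader difference and is not a second result. For EIF4E2 the largest difference was in the 3'UTR: its 3'UTR share was 39.1, 42.9 and 26.7% in CR-1-31-B libraries, 24.1, 16.2 and 11.1% in silvestrol libraries and 57.9, 50 and 61.8% in DMSO libraries, against 61.7% in the input. The rocaglate libraries all lay below the DMSO libraries, of which 2 lay inside the input's exact Clopper-Pearson interval of 50.3 to 72.3%. The difference was -29.9 points (two-sided exact permutation p = 0.0119, Benjamini-Hochberg over all genes 0.288), 0.537% of genes had a lower one, and 5.44% of genes had all rocaglate libraries below all DMSO libraries. These EIF4E2 shares rest on 28 to 83 counts a library. The EIF4E2 leader shares overlapped between rocaglate and DMSO libraries. Its CDS share was 28.3, 46.4 and 53.3% in CR-1-31-B libraries, 42.2, 67.6 and 41.7% in silvestrol libraries and 39.5, 14.3 and 23.5% in DMSO libraries. Only CR-1-31-B library 1 reached into the DMSO range. The CDS difference was 20.8 points (two-sided exact permutation p = 0.0595, Benjamini-Hochberg over all genes 0.468), and 99.0% of genes had a smaller one. It is not independent of the 3'UTR difference, since the shares add up to the whole. EIF4B, whose CDS and 3'UTR values were both lower, had a 3'UTR share of 60.5% with CR-1-31-B, 61.6% with silvestrol and 58.1% with DMSO, a difference of 2.95 points (two-sided exact permutation p = 0.202). Each of the 6 rocaglate libraries lay above the DMSO library of its own number, where 1.17% of genes did (exact permutation within numbers p = 0.0370, the smallest that 27 splits allow; Benjamini-Hochberg over all genes 0.355).

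Leader shares of the remaining members rested on few leader counts. EIF4H had 2.65 ± 0.19% in CR-1-31-B libraries, 3.44 ± 2.66% in silvestrol libraries and 0.68 ± 0.92% in DMSO libraries (two-sided exact permutation p = 0.0714), on 0 to 17 leader counts a library, and 5 of the 6 rocaglate values exceeded every DMSO value. Differences for EIF4A2, EIF4A3, EIF4E, EIF4E2 and EIF4B were between -0.88 and 9.07 points, with exact permutation p-values from 0.417 to 0.810. A comparison of 3 against 3 libraries cannot go below 0.1, so no test of a single rocaglate against DMSO is given for shares.

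The 2 rocaglates were given at the same dose and time, and 1 pair of compounds was compared over the 21 tested member features. No member feature was called for CR-1-31-B against silvestrol, and no feature of any gene was (0% of 24713; 609 had an unadjusted p under 0.05, DESeq2 and limma voom also called 0, and the fit with the library number as a block called 1). The EIF4G2 leader differed by a log2 fold change of 0.26 (95% interval -0.56 to 1.09) and the EIF4G1 leader by -0.32 (-1.05 to 0.41). The EIF4B CDS differed by -0.23 (-0.95 to 0.48). The EIF4G1 3'UTR differed by -0.77 (-1.56 to 0.01; edgeR adjusted p = 1.000). The single member feature with an unadjusted p under 0.05 was the EIF4A3 3'UTR, where the CR-1-31-B libraries are at or below the floor of 3 counts and no fold is given (1 of 21 members, and 2.46% of all features). Intervals of this width do not show that the compounds act alike. In the EIF4E2 3'UTR share, CR-1-31-B libraries (26.7 to 42.9%) lay above silvestrol libraries (11.1 to 24.1%). Any complete separation of 3 against 3 gives the smallest two-sided exact permutation p, 0.1. The CDS and 3'UTR shares of EIF4A3 and EIF4G1 reached the same 0.1, with CR-1-31-B above silvestrol in the CDS and below it in the 3'UTR. How many of all genes separate in this way is not given here, so these are descriptions.

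The partners of the complex were read from 2 lists. Over features of every class, 0.291% were called with CR-1-31-B and 0.255% with silvestrol. Leaders rose more with silvestrol (median log2 fold change 0.40) than CDS (-0.12) and 3'UTRs (-0.26). The share called among leaders alone is not given here, so the counts of leaders below have no like base. The list of cap complex partners held 20 genes, 17 with a tested leader. No CDS or 3'UTR of this list was called. Of its leaders, 0 were called with CR-1-31-B and 4 rose with silvestrol. The 4 include inhibitors and an activator: PAIP2, which pulls poly(A)-binding protein off mRNA, PDCD4, which blocks eIF4A, EIF4EBP1, which sequesters eIF4E, and PAIP1, which joins poly(A)-binding protein to the initiation machinery. The PAIP2 leader had 141, 132 and 89.2 TMM-scaled CPM in CR-1-31-B libraries, 196, 168 and 169 in silvestrol libraries and 48.9, 60.5 and 43.5 in DMSO libraries, so that all rocaglate libraries lay above all DMSO libraries. Its log2 fold change was 1.25 with CR-1-31-B (edgeR adjusted p = 0.143) and 1.80 with silvestrol (SE 0.35, edgeR adjusted p = 0.0233). With silvestrol the values were 2.16 for PDCD4 (edgeR adjusted p = 0.0413), 1.86 for PAIP1 (0.0413) and 2.66 for EIF4EBP1 (0.0467). With CR-1-31-B they were 1.06 for PDCD4 (edgeR adjusted p = 0.475), 1.38 for PAIP1 (0.149) and 2.42 for EIF4EBP1 (0.0678). A call with 1 compound alone therefore does not show a difference between the compounds. When each transcript part was scaled to its own total, all 4 silvestrol calls were lost (edgeR adjusted p 0.0849 to 0.152). Limma voom did not call EIF4EBP1 (adjusted p = 0.337). All 4 stayed called with DESeq2 (adjusted p 5.06e-05 to 0.00481) and with the library number as a block (edgeR adjusted p 0.00141 to 0.00786). Over features of every class, 0.482% were called higher for both rocaglates together, again without a share for leaders alone. In that contrast 3 leaders of the list rose (PAIP2, EIF4EBP1 and PAIP1). Scaling each part to its own total ended these 3 calls as well (edgeR adjusted p 0.0717 to 0.149), and limma voom ended that of EIF4EBP1 (adjusted p = 0.279). DESeq2 (adjusted p 9.08e-05 to 0.0013) and the block (edgeR adjusted p 0.00232 to 0.00773) kept all 3. The list's leaders had a median log2 fold change of 0.14 for CR-1-31-B and 0.37 for silvestrol, beside 0.35 and 0.40 over all leaders, and no leader of the list was called between CR-1-31-B and silvestrol. With the library number as a block, 3 leaders of the list were called with CR-1-31-B (EIF4EBP1, PAIP2 and EIF4EBP2). The block called 5 with silvestrol and 5 for both rocaglates, namely those 3, PDCD4 and PAIP1.

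The list of 43S and other initiation factors held 32 genes, 22 with a tested leader. In the unblocked fit no feature of it was called with either compound alone. With the library number as a block, the EIF5B leader was called with silvestrol. The EIF3M and EIF5B leaders were then called with CR-1-31-B and for both rocaglates, and the EIF3B CDS with CR-1-31-B. Over all features that block fit called 1.28% with silvestrol, 1.48% with CR-1-31-B and 2.04% for both. In the unblocked fit for both rocaglates together 1 leader rose, that of EIF5B, the factor that joins the ribosomal subunits. It had 87.9, 101.2 and 54.5 TMM-scaled CPM in CR-1-31-B libraries, 138, 50.04 and 58.6 in silvestrol libraries and 17.6, 25.5 and 18.3 in DMSO libraries, with all 6 above all 3 (log2 fold change 2.00, SE 0.41, edgeR adjusted p = 0.0303). This call was lost when each part was scaled to its own total (edgeR adjusted p = 0.0741). It stayed with DESeq2 (adjusted p = 0.000702), limma voom (adjusted p = 0.0433) and the block (edgeR adjusted p = 0.00485). Each of these unblocked list calls was lost when single libraries were left out. The silvestrol calls of PAIP2, PDCD4, PAIP1 and EIF4EBP1 were lost without any 1 of the 3 DMSO libraries, silvestrol library 1 or silvestrol library 3, those of PDCD4, PAIP1 and EIF4EBP1 also without CR-1-31-B library 1, and that of PAIP1 also without silvestrol library 2 (edgeR adjusted p from 0.0549 to 0.345 where lost). The calls for both rocaglates were lost without any 1 of the DMSO libraries, CR-1-31-B library 1 or 2, or silvestrol library 1, and that of PAIP2 also without silvestrol library 3 (0.0520 to 0.229). The log2 fold changes stayed between 1.44 and 2.87 throughout.

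Leaders whose profile over the 9 anti-FLAG libraries was most like a member's were found among 3880 leaders with a mean of at least 20 CPM. The EIF4G2 leader was most like those of CSE1L (Pearson r = 0.97), YWHAB (0.96) and HSPH1 (0.96). The EIF4G1 leader was most like that of H2AFY (0.97), the EIF4A3 leader like that of ZIC2 (0.93) and the EIF4G3 leader like that of LOC102724250 (0.84). The 9 points share library-number differences and the general shift to leaders, so these correlations are descriptions. CSE1L had 91.2, 56.2 and 39.4 TMM-scaled CPM in CR-1-31-B libraries, 83.1, 44.4 and 40.8 in silvestrol libraries and 59.7, 29.7 and 22.9 in DMSO libraries, with library 1 the highest in every group as for EIF4G2.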

How the data were processed

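Anti-FLAG eCLIP libraries (3 each for CR-1-31-B, silvestrol and DMSO) and 1 input library were analysed from the deposited read counts per gene symbol and class. The submitters' processing notes name cutadapt for trimming and Bowtie 1.1 for alignment. The genome build, annotation, duplicate removal, strand setting and counting rule are not given in the sources used here, which leaves counts shared with overlapping or antisense genes, or with near-identical copies (EIF4A1, EIF4A2 and processed pseudogenes), uncertain. Each file held 1 blank line, which was left out. Libraries of a group differed by more than sampling noise (chi-square per degree of freedom 4.66 to 10.4).

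All 9 anti-FLAG libraries were fitted together with edgeR 4.0.16 in R 4.3.3 (filterByExpr by group, TMM, quasi-likelihood test, Benjamini-Hochberg over 24713 features, threshold 0.05). DESeq2 1.42.0, limma 3.58.1 voom, other scalings, no filter and leaving out libraries were alternatives. Within-gene shares were compared with two-sided exact permutation tests over libraries; the planned adjustment over members was replaced by one over all 6142 genes. Fitting steps were tested on simulated data. The members, lists and tests were chosen with earlier results of these data known. Named were all members, list genes that were called, and the leaders most like each member; the start sequences, the per-length levels, the counts of groups without overlap, the pairs of EIF4G shares, the shares read within library numbers over all genes and the small RNAs inside member genes were added after values were seen.

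The labels number the libraries 1 to 3 in every group. Deviations of log2 CPM from the group means correlated at 0.102 to 0.263 in the 9 same-number pairs and at -0.203 to 0.0163 in the 18 others, so the numbers were taken as pairs; the pairing comes from the data, not from the labels. Main values come from the unblocked fit.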

Additional observations from a re-analysis of the deposited data

Results flagged for a closer look

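The count files also hold small nucleolar RNAs whose genes lie inside those of eIF4F members, in the ncRNA class that the comparisons above do not use. Small nucleolar RNAs guide the chemical modification of other RNAs, mostly ribosomal RNA, and are cut out of introns of host genes. Box C/D RNAs from EIF4A1, EIF4A2 and EIF4G2 lay above the input in every DMSO library. SNORD10, inside EIF4A1, whose own counts were listed at 0, had 511, 665 and 1060.1 CPM in the DMSO libraries against 346 CPM in the input, a mean ratio of 2.15. SNORD2, inside EIF4A2, had 169, 288 and 176 CPM in the DMSO libraries against 62.5 CPM in the input, a mean ratio of 3.38. SNORD97, inside EIF4G2, had 307, 413 and 382 CPM in the DMSO libraries against 261 CPM in the input, a mean ratio of 1.41. SNORD66, inside EIF4G1, had 88.7, 102 and 51.9 CPM in the DMSO libraries against 68.8 CPM in the input, so that DMSO library 3 lay below it. The 5 box H/ACA RNAs of the same genes (SNORA48 and SNORA67 in EIF4A1, and SNORA4, SNORA63 and SNORA81 in EIF4A2) lay below input in every DMSO library, with mean ratios of 0.12 to 0.43. Among all small nucleolar RNA rows with at least 10 counts, 44.3% of 149 C/D rows and 2.80% of 107 H/ACA rows lay above input in every DMSO library, and 26.6% of 4353 ncRNA rows did. Below input in every DMSO library lay 27.5% of the C/D rows, 81.3% of the H/ACA rows and 18.3% of all ncRNA rows. None of the 9 was called for either rocaglate against DMSO (lowest edgeR adjusted p = 0.603). The input is a single library, so the ratios to it carry no test.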

How the results depend on the processing

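The count of member features called was 0 in all 4 contrasts under every alternative run, and none of 1404 alternative log2 fold changes of the 21 features reached the threshold; the lowest adjusted p was 0.0942 (EIF4B CDS, both rocaglates, replicate block). Blocking by the paired library numbers changed no member call, while over all features it called 365 for CR-1-31-B, 316 for silvestrol and 505 for both, beside 72, 63 and 121; DESeq2 called 279, 242 and 461. Signs changed in 72 of the 1404, and 3 of these had a value beyond 1 SE before: EIF4G2 CDS without DMSO library 1, at 0.14 for CR-1-31-B, 0.012 for silvestrol and 0.077 for both (-0.40, -0.54 and -0.47 with all libraries); the lowest values with 1 library left out were -0.63, -0.85 and -0.69. The number of members with all rocaglate libraries above DMSO in leader share was 1. It ranged from 1 to 2 when single libraries were left out (2 without CR-1-31-B 3, DMSO 1, DMSO 2 or silvestrol 3). Such a step can only raise this number, and the share of all genes is not given for it. In the paired comparison, 3 members were above the same-numbered DMSO library in all 6 (EIF4G1, EIF4G2 and EIF4H; 16.9% of genes were). The EIF4G1 leader share difference had exact permutation p = 0.0536 to 0.0714 in 6 of the 9 fits that left out a library, with fewer splits available; the EIF4H one had 0.0179 without silvestrol 3 and 0.0476 as leader over leader plus CDS. Scaling each class to its own total moved the median of all leaders to between -0.05 and -0.04 against DMSO (0.35 to 0.40 with TMM). It also ended the unblocked list calls named above, while DESeq2 kept those calls. Fitting only the groups compared gives no new value for both rocaglates. Depth limits the leaders of EIF4A2, EIF4E, EIF4E2, EIF4B and EIF4H to under 30 counts a library.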
